A study of Rattus norvegicus with 2 samples.

Results

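The circular RNAs (circRNAs) described here are those whose host gene belongs to the Rab GTPases or to the protein families that work with them in membrane trafficking. They were chosen by gene name, with earlier results of these data known when the rule was set. It took numbered Rab genes, Rab11 effectors, and Rabgef, Rabgap, Tbc1d, Dennd, Vps, Snx, Exoc, Trappc, Cog and Sec genes, without the Rab3 family. Sgsm1 and Mvb12b were added as single genes. The rule took 293 of the 11599 circRNAs of the table, from 97 of 3915 host genes. A circRNA is an RNA closed into a ring by back-splicing, in which the end of an exon is spliced to the start of the same or an earlier one, and each was counted by the reads across that junction. A name rule also takes in a few genes with other main tasks, such as the lipid carriers of the Vps13 family and the Sec genes of protein translocation.

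RNA came from the spinal cord of rats killed 21 days after surgery on the tibia. In the bone cancer pain (BCP) group, live Walker256 rat mammary carcinoma cells grown as ascites in SD rats were placed in the marrow cavity, and in the sham group the same cells had been boiled. Per the labels' protocols 3 animals made up each group, and the labels used here give no genotype, age or further treatment. There was 1 library per group, with any pooling of animals not given in the sources used here. Every ratio therefore compares 2 libraries and none has a replicate check. The tissue label, spinal cord, was followed although the source label gives the name of the tumour line for each sample.

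Membrane trafficking moves proteins and lipids between organelles in vesicles and tubules. Rab GTPases mark each membrane and switch between a GTP-bound active form and a GDP-bound inactive form. Exchange factors such as the DENN domain proteins and Rabgef1 load GTP, and activators with a TBC domain speed its hydrolysis. Active Rabs recruit effectors, some tethers among them. Tethers such as the exocyst, TRAPP, COG, GARP and HOPS complexes catch incoming vesicles. Sorting nexins, retromer and the ESCRT complexes sort cargo at endosomes, and the COPII coat with Sec23 and Sec24 carries cargo out of the endoplasmic reticulum. Neurons depend on these routes to supply long axons and dendrites. A back-splice count describes circular molecules left after RNase R digestion, not the linear mRNA or the protein of the host.

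The sham library held 113033 back-splice reads and the BCP library 78836, a depth ratio of 1.43. Levels are given in CPM, back-splice reads scaled to a library total of 1000000, and since a back-splice is 1 site they were not divided by length. All intervals are 95%, exact, and cover counting error alone. The labels name no molecular identifiers, so PCR copies of 1 molecule may count as separate reads. The smallest count above 0 is 2, so an entry of 0 does not show absence, and no fold or upper limit is given for it. Of 14 neuronal marker genes fixed as hosts, 9 were listed, with 387 reads in sham and 247 in BCP, and skeletal muscle and mammary carcinoma markers had no listed circRNA. Markers of other cells had few reads, and several lists were higher in BCP. Oligodendrocyte markers (3 of 8 listed) had 11 and 45 reads, microglia and macrophage markers (3 of 10) 13 and 55, and astrocyte markers (2 of 7) 19 and 42. Ganglion and Schwann cell markers (2 of 7) had 0 and 19. Vessel markers (4 of 8) had 46 and 34 reads and blood markers (2 of 6) 45 and 47. Gfap, Aqp4, Aif1, Cx3cr1 and P2ry12 were not listed. Whether a shift in cell types has a part in the ratios below was not tested, and in whole tissue fewer cells of a type and less RNA per cell cannot be told apart.

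Trafficking genes supplied 1.80% of all back-splice reads in sham (2037 reads, interval 1.73 to 1.88) and 1.72% in BCP (1353 reads, 1.63 to 1.81). The ratio of BCP over sham was 0.952 (0.888 to 1.02). Median-of-ratios scaling, which lowered every ratio of the table by 0.10 on the log2 scale, took it to 0.886 (0.826 to 0.949). From the 122 circRNAs with reads in both libraries the ratio was 1.04 (0.963 to 1.13). This subset kept the full column totals, so 1 is not its level of equal share. Over the whole table, circRNAs listed in sham alone held 15.9% of sham reads, and those in BCP alone 12.4% of BCP reads. Dropping both raises a ratio scaled this way, so the 1.04 is not read as a change of direction.

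Only circRNAs whose reads summed to 10 or more were compared, and 86 of the 293 members reached this. These 86 held 74.8% of the members' reads. A size rule asked for a 2-fold or greater ratio and an interval that excludes 1. It found that 9 of the 86 were higher in BCP, 6 were lower and 71 met neither side. Over the whole table the rule took 15.2% of 3502 circRNAs, 7.82% as higher and 7.34% as lower, and among the members 17.4%, a share near that background. The median log2 ratio of the 86 was -0.01, beside 0.02 over all circRNAs compared. With median-of-ratios or TMM scaling the members split into 4 higher and 7 lower, and the whole table into 231 and 304, or 228 and 308.

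**Figure D1:**
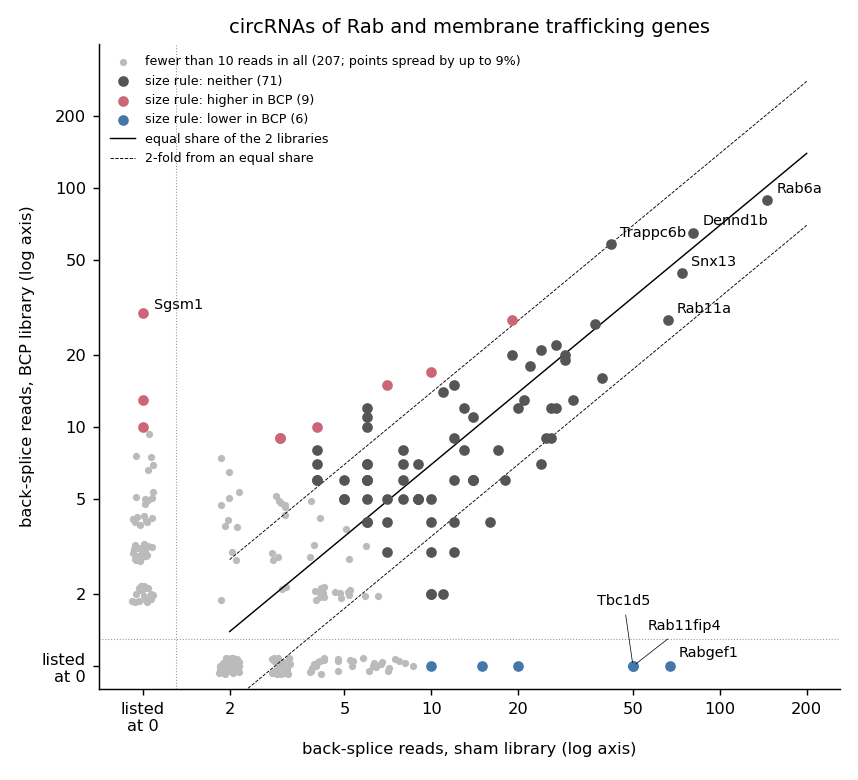
Back-splice reads of each of the 293 member circRNAs in the sham library (x axis) and the BCP library (y axis), both on log axes with a strip for circRNAs listed at 0. Rab6a lies at the top right near the line of equal share, the 6 blue points (lower in BCP) all lie in the strip listed at 0 in BCP, and 3 of the 9 red points (higher in BCP) lie in the strip listed at 0 in sham.

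All 6 member circRNAs that were lower in BCP were listed at 0 there. Among the 77 with reads in both libraries, 0 were lower and 6 were higher. For the whole table these shares were 2.56% and 5.86% of 3244, or 8.42% in either direction. By number, 41.6% of the members were listed in both libraries, beside 41.9% of the 9743 other circRNAs with a host. Listed in sham alone were 104 of the 293, beside 3518 of those others, and in BCP alone 67, beside 2146. The 104 held 26.7% of the members' sham reads, beside 15.2% for the others. Of their 543 reads, circles of Rabgef1, Rab11fip4 and Tbc1d5 gave 67, 50 and 50. The 67 listed in BCP alone held 19.7% of the members' BCP reads, beside 12.0%. With at least 50 reads in all, 3 of 10 members were listed at 0 in a library, beside 9 of 554 other circRNAs with a host. Those 3, of Rabgef1, Rab11fip4 and Tbc1d5, were seen before this count was made, so it is a description.

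Rab GTPases hosted 25 circRNAs from 13 genes, with 352 reads in sham and 216 in BCP. None of the 11 compared met the size rule in either direction, where the whole table had 7.82% higher and 7.34% lower. Rab6a, which acts at the Golgi, hosted the most abundant member (chromosome 1, 165646261 to 165654319, build rn6), ranked 74 in the whole table. Sham gave 146 reads and BCP 89, which is 1292 CPM (1091 to 1519) and 1129 CPM (907 to 1389). These levels overlapped, and the ratio was 0.874 (0.664 to 1.15). It made up 94.8% of Rab6a reads in sham and 94.7% in BCP, so a single circle stood for the gene in each library. Rab11a, the GTPase of recycling endosomes, followed with 66 and 28 reads for its main circRNA (chromosome 8, 70203322 to 70206310). This was 1.64-fold lower in BCP (1.04 to 2.66), short of the 2-fold the rule asks for.

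The other Rab genes had fewer reads, and those listed in both libraries had overlapping intervals. The only circRNA of the Golgi GTPase gene Rab30 had 27 and 22 reads. Rab10, a GTPase gene of exocytic transport, summed to 28 and 17 reads, the endosomal gene Rab21 to 22 and 20, and Rab31 to 21 and 16. Rab1a, which acts between the endoplasmic reticulum and the Golgi, had 9 and 5, and Rab28 had 4 and 7. Rab40c, Rab23, Rab27a and Rab6b were listed in sham alone and Rab4a in BCP alone, none with more than 7 reads. Summed over the role the ratio was 0.880 (0.739 to 1.05). Median-of-ratios scaling gave 0.818 (0.687 to 0.972).

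**Figure D2:**
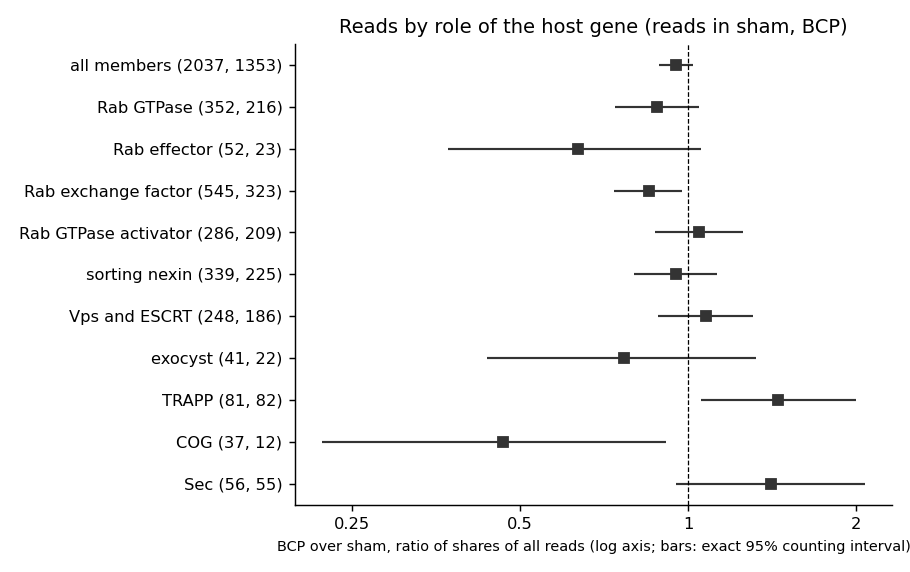
Ratio of BCP over sham for the summed reads of each role of the host gene (x axis, log scale), with exact 95% counting intervals and the reads of both libraries beside each role. The interval for all 293 members includes 1. Those of the exchange factors, TRAPP and COG do not.

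Effectors of the Rab11fip family, which link Rab11 to its partners, hosted 5 circRNAs, and Rab11fip4 gave most of their reads. One on chromosome 10 (66957634 to 66970781) had 50 sham reads, 442 CPM (328 to 583), but was listed at 0 in BCP. Neither of the 2 others of the gene had enough reads to be compared. A circle spanning 141 bp (67040709 to 67040849) had 8 reads in BCP, another (66969271 to 66970781) had 3, and both were listed at 0 in sham. No Rab11fip4 circRNA was thus shared by the libraries. The gene field of the 50-read circRNA also held 16 small RNA family names, so its host is less certain. The host sum, 50 and 11 reads, was 3.17-fold lower in BCP (1.63 to 6.75). Effectors together had 52 and 23 reads, a ratio of 0.634 (0.370 to 1.05). Without the 50-read circle they had 2 and 23, or 16.5-fold higher in BCP (4.07 to 144), in the other direction, with listed 0s summed as no reads. Of those 23 reads, 18 were of circRNAs listed at 0 in sham. The 1 effector circRNA with reads in both libraries had 2 and 5, a ratio of 3.58 (0.587 to 37.6).

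Rab exchange factors hosted the most reads of any role, 545 in sham and 323 in BCP over 56 circRNAs, and all 9 genes had at least 10 reads. Of 26 circRNAs compared, 1 was higher in BCP and 2 were lower, where the whole table had 7.82% and 7.34%. The genes with most circRNAs among the members were Dennd1b (19) and Dennd1a (14), both exchange factors for Rab35. Dennd1b summed to 215 and 143 reads, 1902 CPM (1656 to 2174) and 1814 CPM (1529 to 2137), and Dennd1a to 103 and 76 reads, 911 CPM (744 to 1105) and 964 CPM (760 to 1207). Neither host sum differed by more than counting error, with ratios of 0.954 (0.766 to 1.18) and 1.06 (0.776 to 1.44). The leading Dennd1b circRNA (chromosome 13, 56096834 to 56098861) had 81 and 65 reads, and that of Dennd1a (chromosome 3, 22198808 to 22239368) had 37 and 27.

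Rabgef1, which encodes an exchange factor for Rab5 of early endosomes, had the widest difference of the role. Its main circRNA (chromosome 12, 29985632 to 29988732) had 67 sham reads, 593 CPM (459 to 753), but was listed at 0 in BCP. A longer circle with the same upper end (29976309 to 29988732) had 6 and 4 reads and was seen in both libraries. The host sum, 73 and 4 reads, was 12.7-fold lower in BCP (4.76 to 48.0), with the listed 0 summed as no reads. For Rabgef1, as for the 50-read circles of Rab11fip4 and Tbc1d5, the 0 was not checked against the sequencing reads, and these sums depend on it. The role as a whole had a ratio of 0.850 (0.738 to 0.977), and 0.969 (0.839 to 1.12) without the 67-read circle, so the interval below 1 rests on that circRNA. From circRNAs with reads in both libraries, again scaled to the full column totals, it was 1.05 (0.901 to 1.22).

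Among the other exchange factors, single circRNAs met the rule while their host sums did not. A Dennd5b circRNA (chromosome 4, 183486985 to 183488464) had 10 sham reads and none listed in BCP, beside 56 and 24 reads for the gene, a ratio of 0.614 (0.364 to 1.01). A Dennd1a circRNA (chromosome 3, 22198808 to 22275991) with 3 and 9 reads was higher in BCP by 4.30-fold (1.07 to 24.7), a call lost with either other scaling. Dennd5a summed to 43 and 22 reads, Dennd4c, a gene for a Rab10 exchange factor, to 26 and 21, and Dennd6a to 9 and 15, none of which met the rule.

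**Figure D3:**
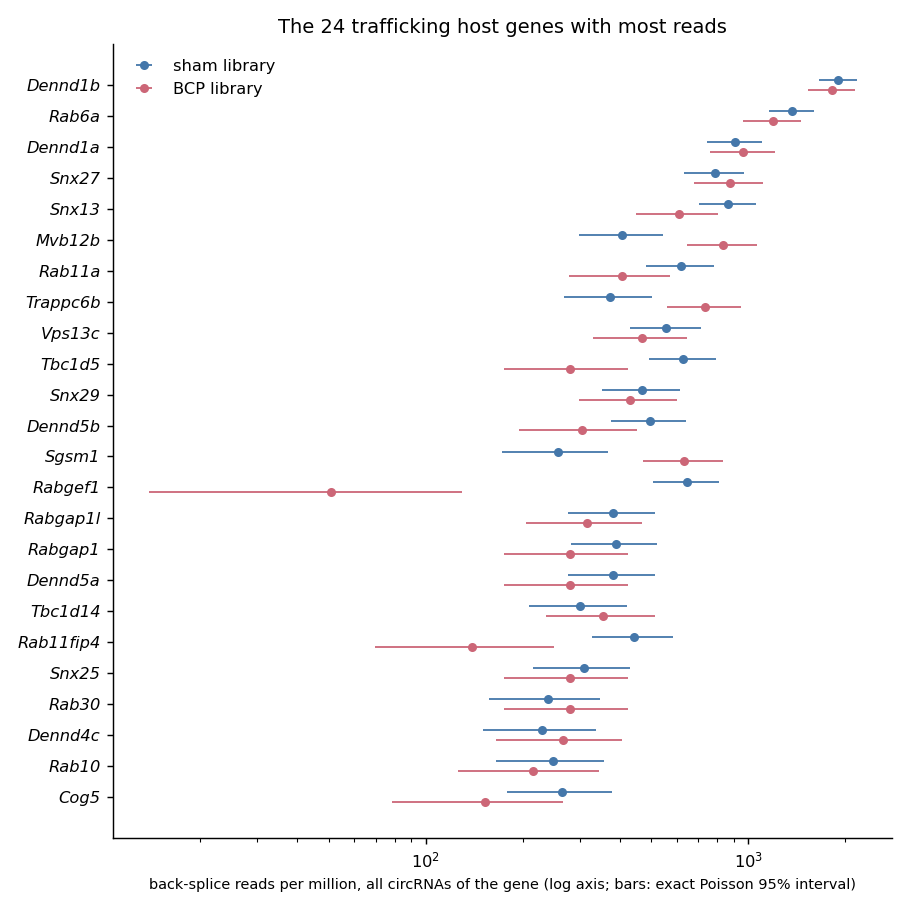
CPM summed over all circRNAs of each of the 24 member genes with most reads (x axis, log scale), with exact Poisson 95% intervals for sham (blue) and BCP (red). Rabgef1, Rab11fip4 and Tbc1d5 have sham levels above BCP and intervals that do not meet, and Sgsm1, Mvb12b and Trappc6b have BCP levels above sham with intervals that do not meet.

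Rab GTPase activators held 286 and 209 reads over 56 circRNAs, a ratio of 1.05 (0.872 to 1.26). With median-of-ratios scaling it was 0.974 (0.811 to 1.17), and without the leading Tbc1d5 circRNA 1.27 (1.05 to 1.54). Of the 14 compared, 3 were higher and 3 lower in BCP, where the whole table had 7.82% and 7.34%. Of 10 host sums compared, 3 were higher and 2 lower, where all hosts had 8.75% and 8.52%. Sgsm1, among those higher, was added to the members as a single gene. Of the called sums, only that of Tbc1d8 still met the rule over circRNAs that both libraries listed. Tbc1d5, an activator for Rab7 that binds retromer, had a circRNA (chromosome 9, 1442054 to 1485363) with 50 sham reads, 442 CPM (328 to 583), listed at 0 in BCP. A shorter one with the same lower end (1442054 to 1446134) had 12 and 15 reads, 106 and 190 CPM, and did not meet the rule. The host sum, 71 and 22 reads, was 2.25-fold lower in BCP (1.38 to 3.81). Tbc1d15, another activator for Rab7, had 20 reads in sham for a circle (chromosome 7, 58192736 to 58196882) listed at 0 in BCP. Its host sum of 25 and 4 reads was 4.36-fold lower (1.51 to 17.2). A circRNA of Rabgap1l (chromosome 13, 78382228 to 78443183) had 15 sham reads and none listed in BCP, while the gene summed to 43 and 25 reads, a ratio of 0.834 (0.488 to 1.40).

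On the other side, Sgsm1, an activator gene for Rab and Rap GTPases, had 2 circRNAs with the same lower end on chromosome 12 whose upper ends lay 31 bp apart. The shorter (49373409 to 49373996) had 29 and 20 reads, 257 CPM (172 to 368) and 254 CPM (155 to 392), which is a ratio of 0.989 (0.530 to 1.81). The longer (49373409 to 49374027) was listed at 0 in sham and had 30 reads in BCP, 381 CPM (257 to 543). The shorter circle was thus level between the libraries, and the host sum of 29 and 50 reads, 2.47-fold higher in BCP (1.53 to 4.05), rests on the longer one. Tbc1d8 summed to 5 and 12 reads (3.44-fold higher, 1.13 to 12.5) and had a circRNA with 3 and 9 reads (chromosome 9, 46104677 to 46105695). Tbc1d1, a regulator of glucose transporter traffic, was listed at 0 in sham and had 13 reads in BCP over 4 circRNAs, none with more than 5. A circRNA of Tbc1d14, a gene with a part in autophagy (chromosome 14, 79407476 to 79413573), with 10 and 17 reads was higher by 2.44-fold (1.05 to 5.96), but the gene summed to 34 and 28 reads, a ratio of 1.18 (0.690 to 2.01). The circRNA calls of Tbc1d8 and Tbc1d14 were lost with either other scaling.

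Sorting nexins, which bind endosomal membranes through a PX domain, held 339 and 225 reads over 53 circRNAs. Of 14 compared, 1 was higher in BCP and 0 were lower, where the whole table had 7.82% and 7.34%. The summed ratio was 0.952 (0.800 to 1.13). Snx27, a cargo adaptor of retromer, had 12 circRNAs that summed to 89 and 69 reads, 787 CPM (632 to 969) and 875 CPM (681 to 1108). Within it, a circRNA on chromosome 2 (195775825 to 195795666) with 7 and 15 reads was higher in BCP by 3.07-fold (1.18 to 8.91). The most abundant one (195768840 to 195795666) had 31 and 13, a ratio of 0.601 (0.289 to 1.18), which met neither side of the rule. Snx13 had the third most abundant member circRNA (chromosome 6, 54522274 to 54530157; 74 and 44 reads) and summed to 98 and 48 reads, a ratio of 0.702 (0.487 to 1.00). Snx29, with 10 circRNAs, summed to 53 and 34. Snx4, a gene of endosomal recycling, was the sorting nexin whose sum met the rule, with 18 and 3 reads (4.18-fold lower, 1.22 to 22.2). None of its 5 circRNAs was listed in both libraries or had enough reads to be compared.

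Vps genes and Mvb12b held 248 and 186 reads, with a ratio of 1.08 (0.884 to 1.31), or 0.852 (0.674 to 1.07) without Mvb12b. Of 12 circRNAs compared, 2 were higher in BCP and 0 lower, where the whole table had 7.82% and 7.34%. Mvb12b, which encodes a subunit of ESCRT-I, gave both of the higher ones. One on chromosome 3 (12860437 to 12931658) with 19 and 28 reads was higher by 2.11-fold (1.14 to 4.00), and another with the same lower end (12860437 to 12892860) was listed at 0 in sham and had 13. A further circRNA (12883430 to 12931658) had 19 and 20 reads and met neither side. The host sum of 46 and 66 reads, 407 CPM (298 to 543) and 837 CPM (647 to 1065), was 2.06-fold higher in BCP (1.39 to 3.07). With either other scaling, the host sum and the circRNA with 19 and 28 reads no longer reached 2-fold. Vps13c, a lipid transfer protein gene, summed to 63 and 37 reads over 6 circRNAs, a ratio of 0.842 (0.545 to 1.28). Its main circRNA (chromosome 8, 73720946 to 73737419) had 39 and 16. Vps33a, of the HOPS complex, had 25 and 9 reads. The leading circRNA of Vps54, of the GARP complex, had 24 and 7 reads and lay just outside the rule, with an interval for the ratio of 0.152 to 1.00.

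Of the other tethers, TRAPP subunits had 81 and 82 reads, a ratio of 1.45 (1.05 to 1.998), most of them from the single Trappc6b circRNA (chromosome 6, 80149001 to 80150524). It had 42 and 58 reads, 372 CPM (268 to 502) and 736 CPM (559 to 951). At 1.98-fold higher in BCP (1.31 to 3.02) it stopped just short of the rule. Without it the TRAPP ratio was 0.882 (0.508 to 1.5045), in the other direction, and with median-of-ratios scaling the interval of the full sum included 1 (0.981 to 1.86). Exocyst subunits had 41 and 22 reads. Exoc2 led them with 19 and 10, and Exoc1 had 12 reads in sham over 2 circRNAs and was listed at 0 in BCP, so its sum met the rule as lower. COG subunits, which tether vesicles at the Golgi, had 37 and 12 reads, most of them from Cog5, a ratio of 0.465 (0.221 to 0.912). From the 2 Cog5 circRNAs with reads in both libraries it was 1.23 (0.519 to 2.86), and without the Cog5 circRNA described next, with 33 and 2 reads left, 0.0869 (0.0101 to 0.340). A Cog5 circRNA (chromosome 6, 51145033 to 51155100) with 4 and 10 reads was higher in BCP by 3.58-fold (1.03 to 15.7, lost with either other scaling), while the gene summed to 30 and 12, a ratio of 0.574 (0.267 to 1.15). That circle made up 13.3% of Cog5 reads in sham (3.76 to 30.7) and 83.3% in BCP (51.6 to 97.9). The BCP share rests on 12 reads, and the Cog5 circRNAs listed at 0 there had 7, 4, 3 and 2 sham reads. As an entry of 0 does not show absence, the 83.3% may be too high.

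Sec genes had 56 and 55 reads over 21 circRNAs from 13 genes, mostly with a single circRNA each. Of 3 compared, 1 was higher in BCP, where the whole table had 7.82%. This circRNA came from Sec24a, a cargo-binding subunit of the COPII coat (chromosome 10, 37180938 to 37185721), was listed at 0 in sham and had 10 reads in BCP. Sec24a summed to 15 and 18 reads, and Sec63, of the translocation channel, to 13 and 7.

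Host gene sums gave 4 genes higher in BCP and 6 lower of 56 with at least 10 reads, 17.9%, beside 17.3% of 2159 host genes (8.75% higher and 8.52% lower). Higher were Mvb12b, Sgsm1, Tbc1d8 and Tbc1d1, and lower were Tbc1d5, Rabgef1, Rab11fip4, Tbc1d15, Snx4 and Exoc1. Mvb12b and Sgsm1 had entered the members as single genes rather than by a family name. Restricted to circRNAs that both libraries listed, 5 of these 10 sums could still be compared. Tbc1d8 met the rule, and Mvb12b (38 and 48 reads), Sgsm1 (29 and 20), Tbc1d5 (14 and 19) and Rabgef1 (6 and 4) met neither side. For the other 5 no comparison was left, since Rab11fip4, Snx4, Tbc1d1 and Exoc1 had no such circRNA and Tbc1d15 kept 5 and 2 reads.

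**Figure D4:**
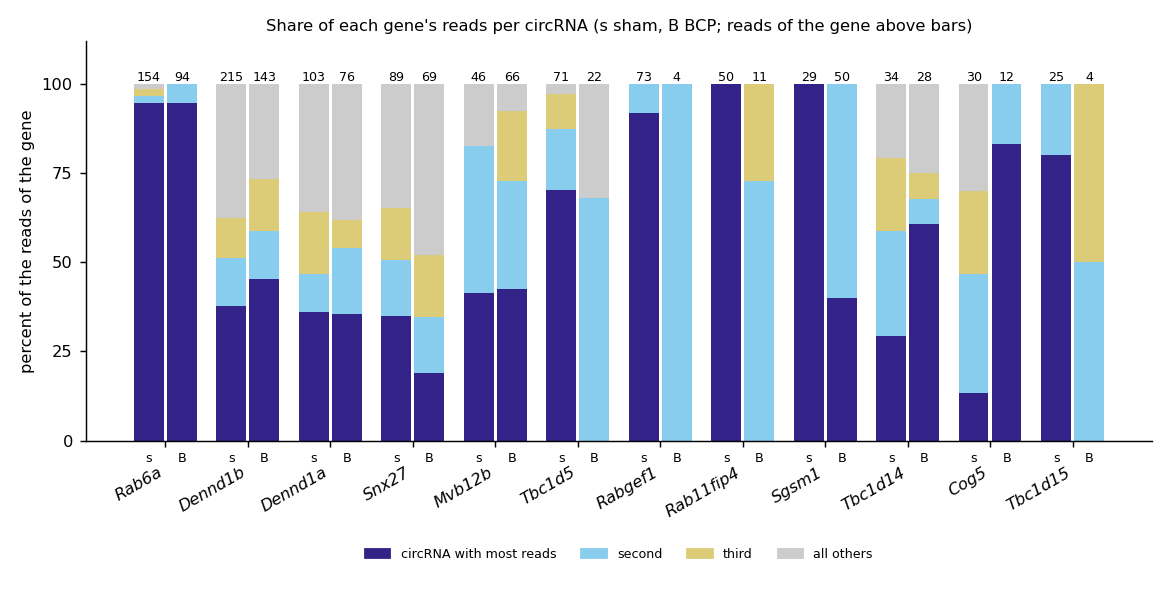
Percent of the reads of a gene (y axis) given by its circRNA with most reads over both libraries (dark blue), the next ones (light blue, sand) and all others (grey), for 12 member genes in sham (s) and BCP (B), with the reads of the gene above each bar. Rab6a, Dennd1b and Dennd1a have similar bars in both libraries, and Rabgef1, Rab11fip4, Tbc1d5, Tbc1d15 and Sgsm1 do not.

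The circRNAs that made up a gene's reads were compared next. For Dennd1b the leading circRNA gave 37.7% of its reads in sham (31.2 to 44.5) and 45.5% in BCP (37.1 to 54.0), and for Dennd1a 35.9% (26.7 to 46.0) and 35.5% (24.9 to 47.3), within counting error. For Tbc1d5 the leading circRNA gave 70.4% in sham (58.4 to 80.7) and 0 of 22 reads in BCP. The next one gave 16.9% (9.05 to 27.7) and 68.2% (45.1 to 86.1), while its own reads were 12 and 15, a ratio of 1.79 (0.783 to 4.19). For Sgsm1 the longer circle gave 0 of 29 reads in sham and 60.0% in BCP (45.2 to 73.6). For Tbc1d14 the leading circRNA went from 29.4% (15.1 to 47.5) to 60.7% (40.6 to 78.5), intervals that overlap.

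**Figure D5:**
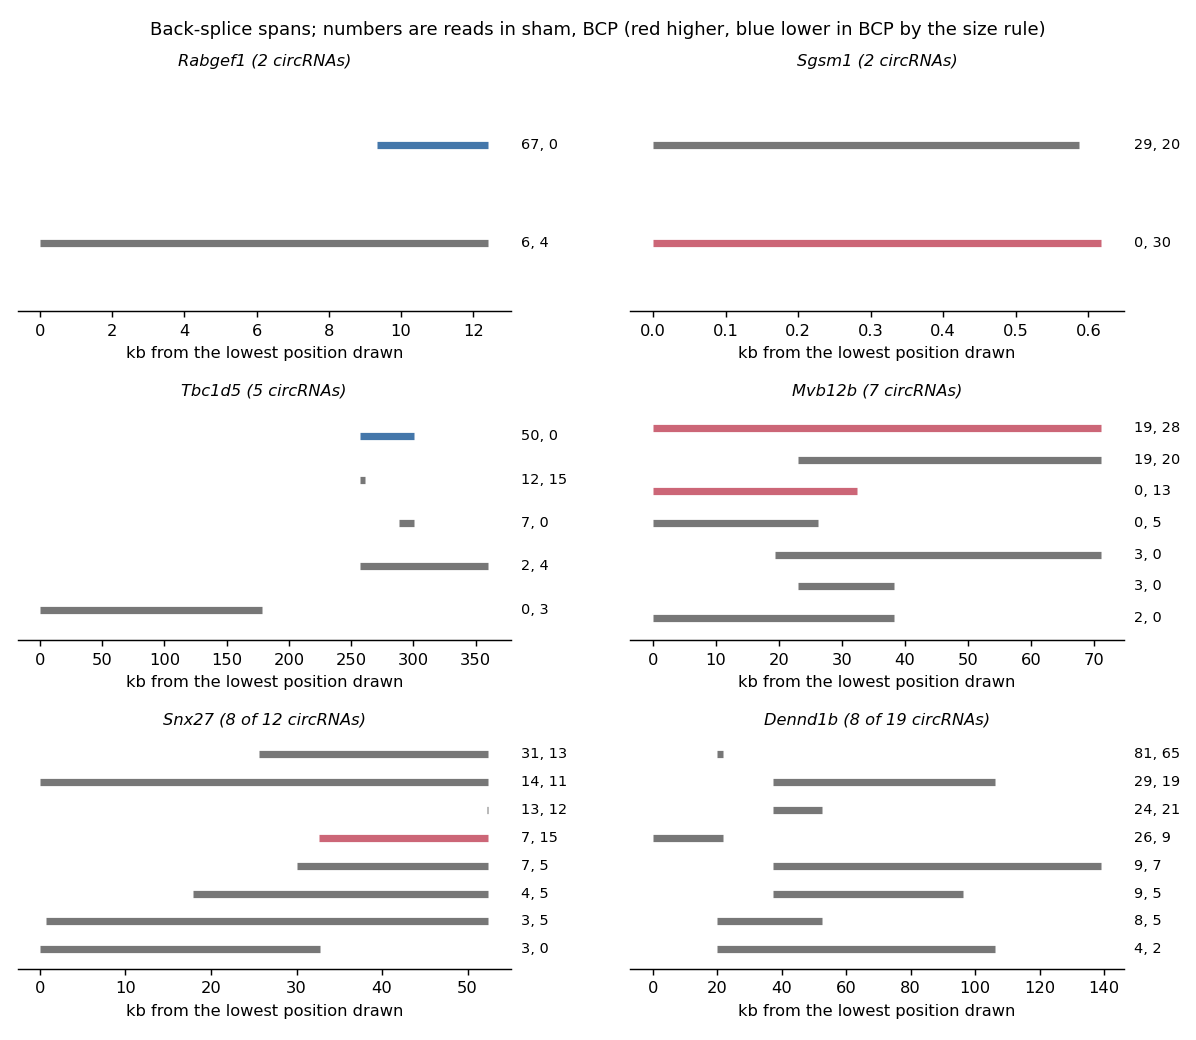
Genomic span of up to 8 circRNAs with most reads for each of 6 member genes (x axis, kb from the lowest position drawn), 1 bar per circRNA, with reads in sham and BCP at the right. In Rabgef1, Sgsm1, Tbc1d5 and Mvb12b a circRNA listed at 0 in a library shares an end with one that has reads in both, and in Snx27 most circles end at the same upper position.

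Most member circRNAs reused a back-splice site. Of the 293, 191 (65.2%) shared their lower or upper end with another circRNA, beside 59.8% of 9743 other circRNAs with a host, and they held 77.7% of the members' reads, beside 75.8%. In Snx27, 8 of 12 circRNAs ended at position 195795666 and held 93.0% of the gene's reads. In Dennd1b, 8 of 19 began at 56096834 and 6 at 56114438. In Rab6a, 3 of 4 began at 165646261 and held 99.2% of its reads, and all 3 Rab11a circRNAs ended at 70206310. In Tbc1d5 the site at 1442054 was used by 3 circRNAs with 64 and 19 reads, and the upper site of its 50-read circle, at 1485363, had 57 reads in sham and 0 in BCP. The members' median span was 9826 bp, beside 9364 bp for other circRNAs with a host, and their median of 5 reads was the same. A host had a median of 2 circRNAs among the members and among all genes.

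A list of other trafficking genes, outside the name rule, held 142, of which 69 hosted 218 circRNAs with 1797 sham reads and 1254 BCP reads, giving a ratio of 1.00 (0.930 to 1.08). Of 67 circRNAs compared, 5 were higher and 6 lower in BCP, 16.4% beside 15.2% over the whole table, and the median log2 ratio was 0.02. Among the 64 with reads in both libraries, 4 were higher and 4 lower, where the whole table had 5.86% and 2.56% of 3244. Groups within the list lay on both sides of the pooled ratio. Its Rab cycle genes, exchange factors and activators outside the name rule among them, had 391 and 353 reads, a ratio of 1.29 (1.12 to 1.499), and held all 5 of the higher circRNAs, of Evi5 (13 and 26 reads) and Usp6nl (10 and 19) among others. Its genes of lysosome scaffolds and lipids had 218 and 119 reads, a ratio of 0.783 (0.621 to 0.983), and 77 and 26 of these were of Lrba. Its ESCRT genes had 51 and 18 reads, a ratio of 0.506 (0.278 to 0.881). CircRNAs listed in sham alone gave 24 of the 51, and those listed in BCP alone 2 of the 18. By host sums 2 of 38 genes were higher and 4 lower, where the whole table had 8.75% higher and 8.52% lower. Among those higher, Rab3ip, a gene for an exchange factor of Rab8, summed to 4 and 13 reads. Lower were the vesicle motor gene Myo5a (66 and 20 reads, ratio 0.434, 0.249 to 0.726), the BEACH domain gene Lrba (77 and 26 reads, 0.484, 0.298 to 0.764), the ESCRT gene Stam2 (12 reads) and the COPI coat gene Copg1 (11 reads), both of which were listed at 0 in BCP. Unlike the sums of Rabgef1 or Tbc1d5, those of Myo5a (54 and 18 reads) and Lrba (66 and 22) also met the rule over the circRNAs that both libraries listed.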

How the data were processed

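CircRNA sequencing of spinal cord RNA gave 1 library each for BCP and sham. Per the labels' protocols, ribosomal RNA was removed and RNase R (16 units, 15 min) was used against linear RNA. The authors deposited whole-number back-splice read counts per circRNA, with none equal to 1. Columns the authors headed TPM hold CPM, since each value above 0 is the count scaled to a column total of 1000000, within 0.001. Per the submitters' processing notes, CASAVA 1.8, BWA and build rn6 were used, with the circRNA caller and its read minimum not given in the sources used here.

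Names covering over 3 Mb of a chromosome were skipped (65, none of them a member), as were small RNA family names. All 97 member names matched a RefSeq symbol (GRCr8), used for names alone. Counts were scaled to column totals, with a log2 pseudocount of 0.5 reads and exact binomial (Clopper-Pearson) or Poisson intervals (scipy 1.17.1). The size rule needs at least 10 reads and a ratio, with the pseudocount, of at least 2-fold whose interval excludes 1. It was tested on simulated data that held counting error alone, so that test does not cover variation between animals or libraries. No p-value can be had. Named circRNAs were the 10 most abundant members, up to 12 per direction past the rule, host sums past the rule, the 5 genes with most circRNAs and the leading gene of each role. Further members were named after their values were seen. Members, lists and rule were chosen with earlier results of these data known. Alternatives used DESeq2 1.42.0 and edgeR 4.0.16 for scaling the deposited counts, other read minimums and ratios, and subsets of circRNAs. Some single-gene values are not reported here.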

Additional observations from a re-analysis of the deposited data

How the results depend on the processing

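No paired analysis was possible because each group has 1 library. The summed ratio of 0.952 was 0.886 with median-of-ratios scaling, 0.878 with TMM, and 1.04 from circRNAs with reads in both libraries. That last value kept the full column totals, for which 1 is not the level of equal share. The 9 member circRNAs higher in BCP became 4 with median-of-ratios, TMM or a minimum of 20 reads, and 20 with no read minimum. The 6 lower ones became 15 with no minimum and 0 from circRNAs with reads in both libraries. The 4 host genes higher in BCP became 8 with no minimum, 2 with a minimum of 20 reads and 1 from circRNAs with reads in both libraries, where the 6 lower ones became 0. The median log2 ratio of -0.01 was -0.27 with no minimum, which brings in circRNAs with 2 to 9 reads. The median of these was -0.62 among the members, beside -1.07 for other circRNAs with a host. Settings that drop circRNAs lower counts by construction, and the cause of the other changes was not tested. Of 48 named circRNAs and host sums, 42 kept their side of the rule under each scaling. The 6 that did not were the circRNAs of Dennd1a, Tbc1d8, Cog5, Tbc1d14 and Mvb12b (19 and 28 reads) and the sum of Mvb12b. None changed side with a pseudocount of 1 read. Alternatives for role sums were added after the data were seen. With 1 library per group no call has a replicate check, and 207 of 293 members had fewer than 10 reads and were not compared.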

Other observations

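The Sgsm1 pair, which shares a lower end and differs by 31 bp at the upper one, was set beside the rest of the table. With a limit of 50 bp, 123 such pairs were listed and the Sgsm1 pair was the only one with a member. Both circRNAs had at least 10 reads in 38 pairs, and in 4 of these at least 1 circRNA was listed at 0 in a library. This search was made after the Sgsm1 counts were seen.

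Small RNA family names stood in the gene field of 2 of 9 compared members listed at 0 in a library (Rab11fip4 and the longer Sgsm1 circle) and of 2 of 77 with reads in both. Over the whole table these were 84 of 258 (32.6%) and 582 of 3244 (17.9%).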
